A study of Mus musculus with 14 samples.

Results

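The 44 protein-coding genes of the GENCODE M21 mouse annotation whose symbols read Col, a number, a and a number, of 21938 protein-coding genes in all, were described by the H3K4me1 sites that lie at their promoters, inside them and upstream of them. The rule for membership reads the gene symbol alone and uses no measured value. They fall into 7 fibrillar genes (Col1a1, Col1a2, Col3a1, Col5a1, Col5a2, Col5a3 and Col24a1), 6 type VI genes (Col6a1 to Col6a6), 8 cartilage genes (Col2a1, Col9a1, Col9a2, Col9a3, Col10a1, Col11a1, Col11a2 and Col27a1) and 2 epithelial genes (Col7a1 and Col17a1). Another 6 encode the type IV chains of basement membranes (Col4a1 to Col4a6), 2 the type VIII chains (Col8a1 and Col8a2), 6 the fibril-associated collagens or FACITs (Col12a1, Col14a1, Col16a1, Col19a1, Col20a1 and Col22a1), 2 the multiplexins (Col15a1 and Col18a1), 3 transmembrane collagens (Col13a1, Col23a1 and Col25a1) and 2 belong to none of these classes (Col26a1 and Col28a1).

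The cells were NG3, a clone of immortalized mouse embryo fibroblasts (iMEF) in which the loxP-flanked endogenous Ash2l had been deleted through a tamoxifen-activated Cre and a lentivirally delivered human ASH2L, fused at its N terminus to FKBP12F36V, supported their proliferation. The compound dTAG-13 recruits an E3 ligase to this tag and so degrades the fusion protein. ASH2L is a core subunit of the KMT2 complexes that methylate lysine 4 of histone H3. H3K4me1 chromatin immunoprecipitation was sequenced in 12 libraries, 2 each from untreated cells and from cells given dTAG for 0.5, 2, 4, 8 and 16 h, beside 2 input libraries (untreated and 16 h). Untreated and treated cells alike carried the deletion and the fusion gene, and all came from 1 clone.

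The deposited table lists 160144 H3K4me1 sites called over these libraries together, each with a chromosome, a start and an end and no signal per library. A site therefore says where H3K4me1 was called in at least part of the time course, in the mm10 build. Only 2 of the 12 libraries came from untreated cells. The paper reports that H3K4me1 signals rising after dTAG lay almost only at promoters. A promoter site listed here, or its full width, need not have been present in untreated cells. It carries no height, no replicate error and no value at any time after dTAG, so what follows is a map of positions, and the response of the collagens to loss of ASH2L was not analysed here. The table does not give the reads behind a site. Site widths ran from 200 to 50106 bp with a median of 603 bp. Where a share of genes is given with a range, that range is a Wilson 95% interval, which covers the counting of genes only.

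Collagens are trimeric proteins of the extracellular matrix, built from alpha chains that wind into a triple helix. Fibroblasts secrete the fibrillar collagens of types I, III and V, which assemble into the fibrils of skin, tendon and bone, and the beaded filaments of type VI, whereas types II, IX, X and XI belong mainly to cartilage and types VII and XVII anchor epithelia to the tissue beneath them. H3K4me1 is known as a mark of enhancers and of the flanks of active promoters, and it is also found along parts of transcribed genes.

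On each gene 3 windows were laid. The promoter was taken as 1 kb on either side of the most upstream transcription start site (TSS), 2001 bp in all, the gene body ran from the annotated start to the annotated end, and the upstream region was the 50 kb before the TSS. A window held a site when at least 1 bp overlapped. A site was present at the promoter of 31 of the 44 collagen genes (70.5%, 55.8 to 81.8), beside 63.9% of all protein-coding genes. A site covered the TSS itself in 28 of the 44 (63.6%, 48.9 to 76.2), against 39.5% of all protein-coding genes. At least 1 site lay in the body of 43 collagens (72.8% of all genes) and in the 50 kb upstream of 42 (81.0% of all genes). The 31 genes with a promoter site had a site in all 3 windows, as did 61.8% of all protein-coding genes. The windows overlap or meet at the TSS, so a single site that spans it counts in all 3. This was so at 28 of the 31 genes, so the 3 counts are not separate findings. With the first 1 kb after the TSS left out, 42 collagen bodies held a site (66.2% of all genes). With the 1 kb before the TSS left out, 40 collagen upstream regions did (77.8% of all genes).

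Collagen genes are long. Their median length was 114388 bp against 17425 bp for all protein-coding genes, and of the 40 collagens of at least 20 kb, 39 had a site in the body, where 89.0% of all genes of that length did. Even in that set the collagens were longer, with a median of 120414 bp against 49257 bp. The share of the gene covered by sites is taken per base, and its median was 6.54% for the collagens and 6.47% for all protein-coding genes (5.11% and 5.197% with sites under 500 bp left out). Upstream, the median share covered was 9.97% for the collagens and 6.13% for all genes. Another protein-coding gene lay in this 50 kb window at 26 of the 44 collagens, so sites there may belong to neighbours. The median was 10.2% for these 26 and 8.59% for the other 18. With the window ended at the nearest other protein-coding gene, 35 of the 44 collagens held an upstream site (79.5%), beside 59.2% of all genes.

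The promoter sequences below show the 250 bases before the RefSeq TSS (GRCm38.p6 build, 5′ to 3′ on the strand of the gene) for 5 collagens that span the range seen: Col5a1 and Col6a3, whose promoter windows lie wholly within sites of over 10 kb, the cartilage genes Col11a1 and Col10a1 with sites of 3097 and 402 bp, and Col3a1 with none. Capitals mark every match, on either strand, to TATAAA, to CCAAT, to the GC box GGGCGG and to the AP-1 motif TGANTCA, none of which contains another. The coordinates are chr2:27886175-27886424 for Col5a1 (plus strand), chr1:90843972-90844221 for Col6a3 (minus strand), chr3:114030290-114030539 for Col11a1 (plus strand), chr10:34389731-34389980 for Col10a1 (plus strand) and chr1:45311288-45311537 for Col3a1 (plus strand).
Col5a1: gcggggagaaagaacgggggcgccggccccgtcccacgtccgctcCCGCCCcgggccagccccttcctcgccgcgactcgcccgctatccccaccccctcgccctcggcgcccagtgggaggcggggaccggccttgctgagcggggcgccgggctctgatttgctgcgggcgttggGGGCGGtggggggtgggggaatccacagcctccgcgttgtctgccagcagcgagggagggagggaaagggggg
Col6a3: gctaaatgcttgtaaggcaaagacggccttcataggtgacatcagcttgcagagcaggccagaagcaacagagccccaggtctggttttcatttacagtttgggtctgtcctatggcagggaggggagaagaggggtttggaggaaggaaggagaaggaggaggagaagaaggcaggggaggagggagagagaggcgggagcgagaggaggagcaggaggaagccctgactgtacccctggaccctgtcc
Col11a1: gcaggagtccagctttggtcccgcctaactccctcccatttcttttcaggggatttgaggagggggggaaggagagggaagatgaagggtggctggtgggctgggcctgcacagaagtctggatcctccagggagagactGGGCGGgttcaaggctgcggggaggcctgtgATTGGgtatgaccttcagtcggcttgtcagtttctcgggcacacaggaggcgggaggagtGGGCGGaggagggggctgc
Col10a1: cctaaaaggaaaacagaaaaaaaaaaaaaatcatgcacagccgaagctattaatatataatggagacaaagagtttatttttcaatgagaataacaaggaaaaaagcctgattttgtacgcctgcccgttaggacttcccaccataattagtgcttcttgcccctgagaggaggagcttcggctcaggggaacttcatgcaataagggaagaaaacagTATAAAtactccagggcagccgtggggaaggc
Col3a1: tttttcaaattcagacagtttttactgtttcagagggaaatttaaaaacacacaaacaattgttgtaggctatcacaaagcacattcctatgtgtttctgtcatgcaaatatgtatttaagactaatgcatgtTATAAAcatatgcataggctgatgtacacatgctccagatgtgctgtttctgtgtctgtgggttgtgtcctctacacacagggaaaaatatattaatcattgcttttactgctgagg
For these 5 genes the RefSeq TSS is the base from which the windows were drawn. Col5a1 matched GGGCGG at -205 and -73 bp from the TSS, and Col11a1 matched it at -110 and -19 bp and CCAAT, on the opposite strand, at -79 bp. TATAAA began at -32 bp in Col10a1 and at -117 bp in Col3a1, and Col6a3 held none of the 4 motifs. Among the 35 collagens with an entry in the RefSeq promoter table, 5 held TATAAA in these 250 bases (14.3%, against 11.9% of 16522 promoters in the table), namely Col3a1, Col10a1, Col11a2, Col13a1 and Col17a1. CCAAT was present in 34.3% of them (36.1% of all), GGGCGG in 60% (44.4% of all) and TGANTCA in Col6a1 alone (6.13% of all). Col1a1, Col2a1, Col4a3, Col5a2, Col9a3, Col12a1, Col14a1, Col22a1 and Col26a1 were not matched.

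**Figure D1:**
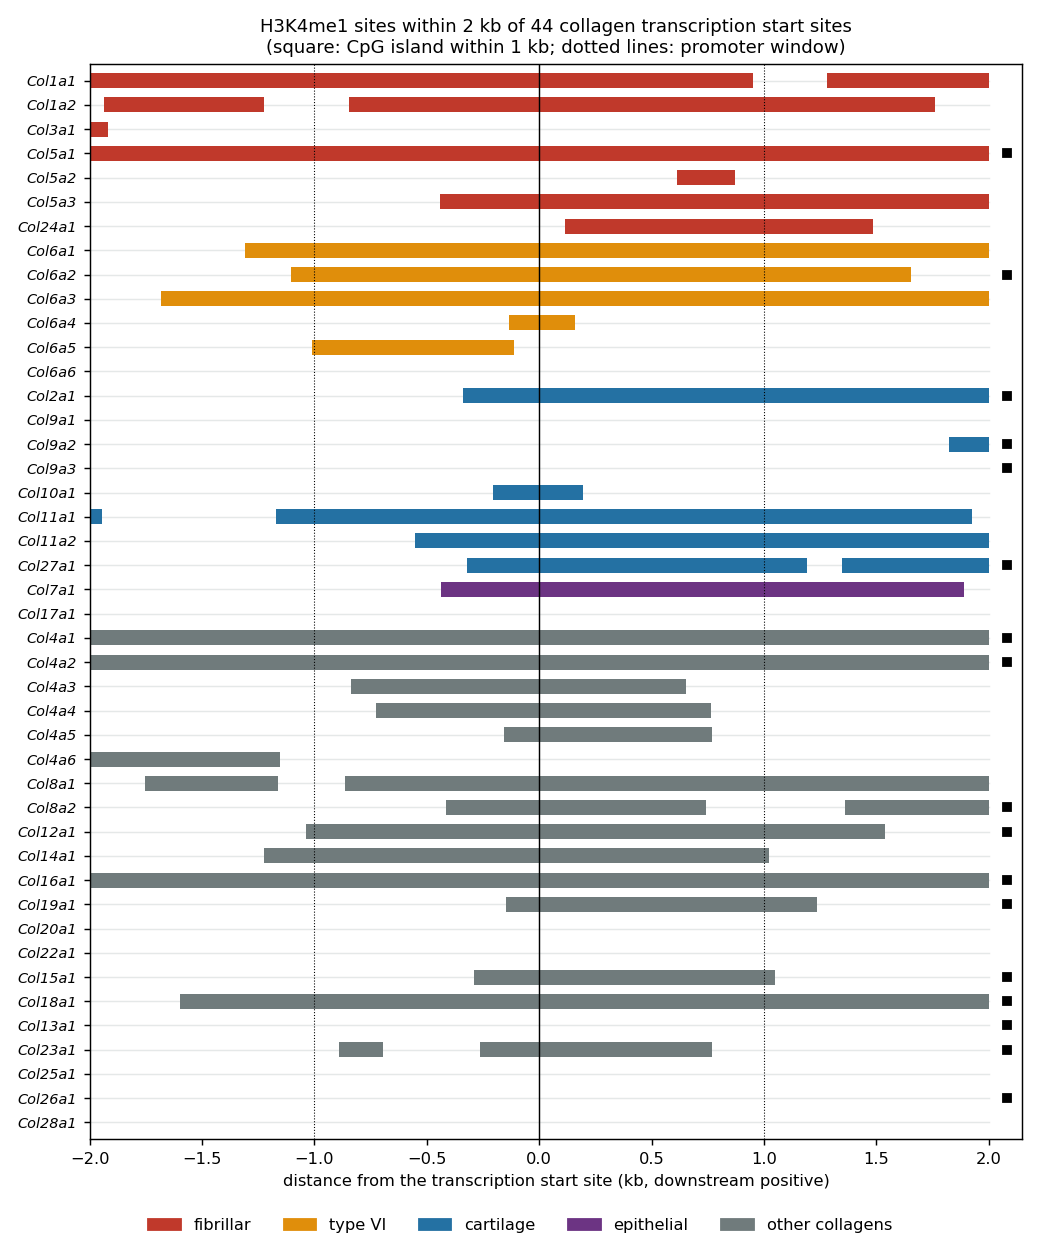
H3K4me1 sites (bars) within 2 kb of the TSS of each of the 44 collagen genes, drawn by distance from the TSS in kb with transcription to the right, coloured by class, the dotted lines marking the 1 kb promoter window and a square at the right a CpG island in it. Bars reach into the window at 31 genes, and 18 of these have no square.

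CpG islands, stretches of DNA rich in unmethylated CG dinucleotides, mark the promoters of most widely expressed genes. An island overlapped the promoter window of 17 collagens (38.6%, 25.7 to 53.4), beside 53.8% of all protein-coding genes, but with looser criteria and repeats left in, 32 collagen promoters met them (72.7%), beside 67.4% of all, so the order of the shares turned. Genome-wide, 93.0% of island promoters and 30.0% of the others held an H3K4me1 site. For collagens the 2 kinds were closer together: 13 of 17 island promoters (76.5%, 52.7 to 90.4) and 18 of 27 without an island (66.7%, 47.8 to 81.4) held one. This split rests on the stricter call of 17 islands and was not repeated with the looser criteria, which 32 collagen promoters met. The 4 island promoters without a site were those of Col9a2 and Col9a3, which encode cartilage type IX chains, of the transmembrane Col13a1 and of Col26a1.

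The sites at collagen promoters were wide. The 30 separate sites that touched a collagen promoter had a median width of 2453.5 bp, where the median at all protein-coding promoters was 1241 bp, and 5 of the 30 (16.7%) were at least 5 kb wide, against 3.24% at all protein-coding promoters. In the gene bodies the median was 641 bp for collagens and 662 bp for all genes. A site of at least 5 kb overlapped the body of 8 collagens (Col1a1, Col5a1, Col5a3, Col6a3, Col27a1, Col4a1, Col4a2 and Col16a1, 18.2%), and that of 5.13% of all protein-coding genes. The full width of a site counted here, even where part of it lay outside the gene. At Col5a3, Col6a3 and Col16a1 it was the wide promoter site already counted, so the promoter and body counts are not separate findings. Among genes of at least 20 kb, a background chosen after the data were seen, such a site overlapped 7 of 40 collagens (17.5%) and 7.21% of all. The collagens remain longer than the other genes of that set, so gene length is only partly matched.

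**Figure D2:**
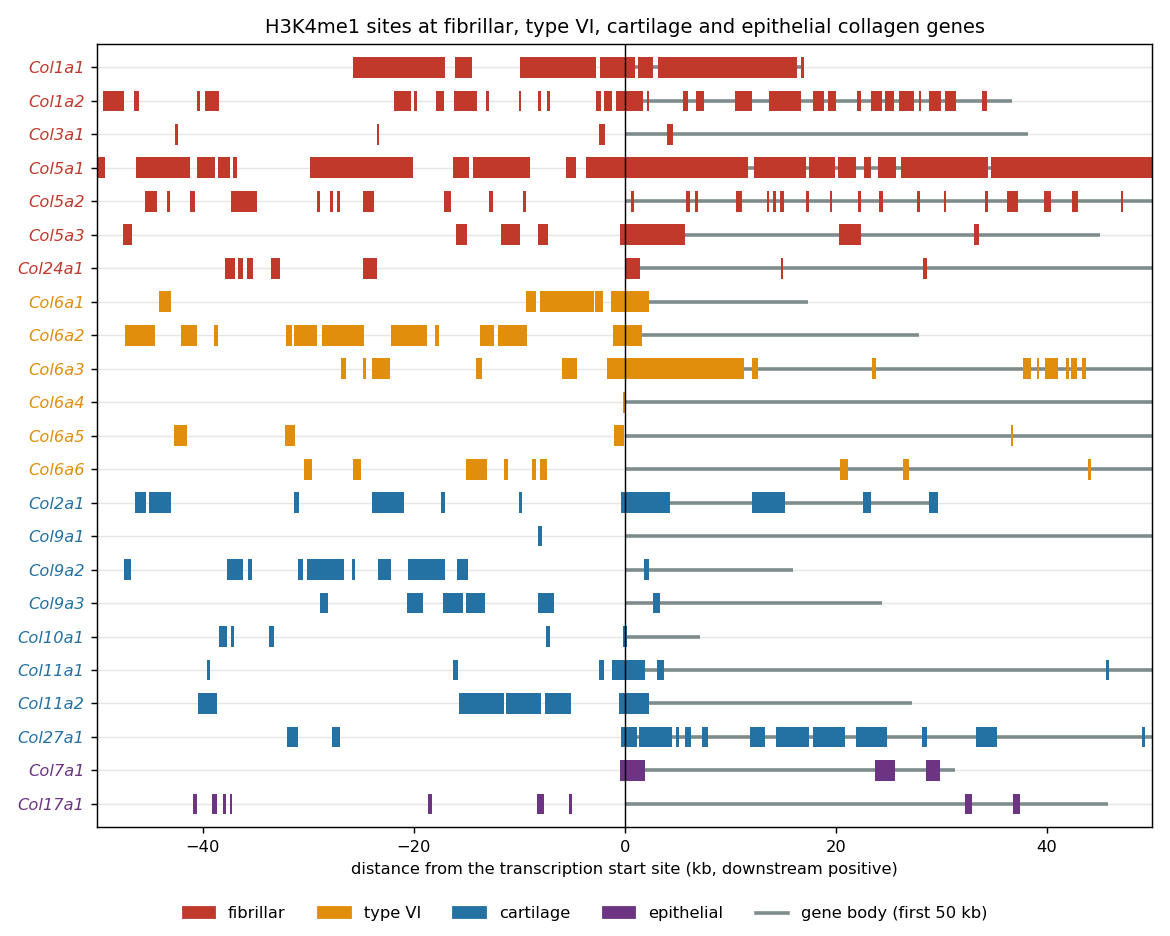
Sites (bars) from 50 kb before to 50 kb after the TSS of the 13 fibrillar and type VI and the 10 cartilage and epithelial collagen genes, by distance from the TSS in kb. The grey line is the gene body, to its end or to 50 kb. Sites wholly past the end of a gene are not drawn. Col5a1 is covered over most of the stretch shown, and Col1a1 over 92.7% of its body and 39.8% of the upstream 50 kb. Col3a1 has 4 short bars.

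Among the fibrillar genes, the chains of type I collagen, the main protein of the fibrils that fibroblasts lay down, were densely covered. Col1a1 (chr11:94936224-94953042, plus strand) had sites over 92.7% of its 16819 bp, more than any other collagen and more than 98.8% of all protein-coding genes. Its promoter site of 3271 bp ran from -2318 to 952 bp relative to the TSS. A further site of 1391 bp was centred in intron 2, and one of 13134 bp ran from 3.19 to 16.3 kb after the TSS and so over most of the remaining exons. A site of 200 bp, the shortest width in the table, sat at the last of its 51 exons. Upstream, 4 sites covered 39.8% of the 50 kb, the largest of them 8722 bp wide and ending at -17015 bp, with no other protein-coding gene in that window.

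Col1a2 (chr6:4504814-4541544, plus strand), the partner chain, showed many short sites in place of a few wide ones. It had 16 sites in 36731 bp, none wider than 3082 bp, and they covered 44.4% of the gene. Its promoter site was 2606 bp wide and spanned the TSS. In the 50 kb upstream, 15 sites, the promoter site among them, covered 24.1%.

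Col3a1, which encodes type III collagen and is usually made by the same cells, had almost no sites. Over the 38169 bp of the gene (chr1:45311538-45349706, plus strand) there was 1 site, of 572 bp, in intron 1 from 4043 to 4614 bp after the TSS, which covered 1.499% of the gene. No site reached its promoter window, and the nearest one, 566 bp wide, ended 1919 bp before the TSS. Further upstream lay 2 sites of 224 and 262 bp, so that 2.10% of the 50 kb was covered. In share covered Col3a1 was the lowest of the 7 fibrillar genes both inside the gene and upstream.

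Col5a2, a type V chain that nucleates fibrils together with Col5a1, lies tail to tail with Col3a1, with 24614 bp and 4 sites between their ends. Its 128962 bp held 26 sites, none wider than 1054 bp, which covered 7.13%. At its promoter there was only a site of 260 bp, shorter than the widest promoter site of each of the other 30 collagens that had one, beginning 614 bp after the TSS. The upstream 50 kb was covered to 15.2% by 11 sites. The neighbours thus differed in site density, with 2.02 sites per 10 kb in Col5a2 and 0.262 in Col3a1.

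Col5a1 (chr2:27886425-28039514, plus strand) carried the widest sites of any collagen gene. A site of 15404 bp ran over its CpG island promoter from -3696 to 11707 bp relative to the TSS, the widest promoter site of the 44, and one of 19948 bp, the widest within a collagen gene, followed between 34.7 and 54.7 kb. The 23 sites of the gene covered 40.4% of its 153090 bp, and 10 sites covered 60.8% of the 50 kb upstream, a share above that of 99.8% of all protein-coding genes. Col5a3, a further type V chain, had only 3 sites in its 45018 bp, but 1 of them was 6152 bp wide and spanned the TSS, and 18.6% of the gene was covered. Col24a1, a minor fibrillar collagen, had 25 sites in 259540 bp, of at most 1373 bp and covering 5.16%, and its promoter site began 114 bp after the TSS.

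The type VI chains split by gene. Col6a1, Col6a2 and Col6a3 encode the chains of the common filament, and each had a site that filled the whole 2001 bp promoter window. The Col6a3 site was 11556 bp wide and ran to 9871 bp after the TSS, those of Col6a1 and Col6a2 were 3614 and 2763 bp wide. Col6a3 had 14 sites and 24.5% of its 78049 bp covered. Col6a1 and Col6a2 each had only the promoter site reaching into the gene, which covered 13.3% and 5.95%. The 85161 bp between these neighbouring genes on chromosome 10 held 18 sites, and the 50 kb before Col6a2 was covered to 41.3% by 11 sites.

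Col6a4, Col6a5 and Col6a6, the alternative chains of type VI collagen, lie in a row on chromosome 9 and were sparsely covered. Their genes of 104566 to 140352 bp held 4, 4 and 5 sites, and these covered 2.74%, 1.78% and 1.53%. Col6a4 had a 296 bp site over the TSS. Col6a5 had a 901 bp site that ended 111 bp before its TSS. Col6a6 had no promoter site, the nearest lying 7408 bp upstream. None of the 3 thus reached the lowest share among Col6a1, Col6a2 and Col6a3.

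Sites away from promoters are shown by 300 bases about the centre of 4 of them, on the strand of the gene and with the same capitals: the widest site inside Col1a1, the nearest upstream site and the intron 1 site of Col3a1, and an upstream site of Col6a3 of 1726 bp centred 23.1 kb before the TSS. They lie at chr11:94945827-94946126 (Col1a1 intragenic), chr1:45309187-45309486 (Col3a1 upstream), chr1:45315717-45316016 (Col3a1 intron 1) and chr1:90866958-90867257 (Col6a3 upstream), in the GRCm38.p6 build. Introns are numbered on the principal annotated transcript of each gene. Over all annotated transcripts, the Col3a1 intron 1 stretch overlaps 1 exon entry and the Col1a1 stretch 2.
Col1a1 intragenic: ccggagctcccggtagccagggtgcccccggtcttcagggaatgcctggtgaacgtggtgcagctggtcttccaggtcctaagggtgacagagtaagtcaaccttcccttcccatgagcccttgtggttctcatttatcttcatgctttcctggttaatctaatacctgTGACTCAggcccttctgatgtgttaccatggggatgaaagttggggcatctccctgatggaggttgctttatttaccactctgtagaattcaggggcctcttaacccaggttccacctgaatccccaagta
Col3a1 upstream: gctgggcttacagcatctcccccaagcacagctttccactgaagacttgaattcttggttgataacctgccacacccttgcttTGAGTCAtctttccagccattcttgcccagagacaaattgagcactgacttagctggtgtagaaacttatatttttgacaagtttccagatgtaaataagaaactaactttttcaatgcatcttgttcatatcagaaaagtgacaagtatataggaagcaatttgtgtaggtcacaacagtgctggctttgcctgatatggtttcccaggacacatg
Col3a1 intron 1: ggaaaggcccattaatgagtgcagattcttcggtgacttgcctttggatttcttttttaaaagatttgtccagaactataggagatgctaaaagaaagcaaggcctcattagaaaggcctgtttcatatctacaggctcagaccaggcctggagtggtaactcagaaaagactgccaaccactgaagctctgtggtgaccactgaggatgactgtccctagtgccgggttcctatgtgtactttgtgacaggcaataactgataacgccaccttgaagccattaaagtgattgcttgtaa
Col6a3 upstream: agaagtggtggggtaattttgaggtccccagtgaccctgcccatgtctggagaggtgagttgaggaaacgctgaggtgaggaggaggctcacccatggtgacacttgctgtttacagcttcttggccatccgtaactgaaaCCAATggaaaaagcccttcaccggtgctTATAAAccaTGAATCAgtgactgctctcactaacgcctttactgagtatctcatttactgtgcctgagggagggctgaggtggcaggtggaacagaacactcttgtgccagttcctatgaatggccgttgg
TGANTCA is the sequence bound by AP-1, a family of factors found at many fibroblast enhancers. It was present within 300 bases about the centre of 120 of the 670 separate sites in the windows of the 44 genes (17.9%) and of 18.4% of all sites. For sites outside collagen promoter windows the share was 18.75% of 640 at all collagen genes. It was 22.1% of 190 at fibrillar and type VI genes and 17.3% of 75 at cartilage and epithelial genes. The 18.4% of all sites includes promoter sites, and a share without them was not counted. Letter matches of this kind do not show binding.

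The cartilage genes ranged from densely to barely covered. Col2a1, which encodes the main fibrillar collagen of cartilage, had a 4595 bp site over its CpG island promoter, and 4 sites covered 28.8% of its 29094 bp. Col27a1, a fibrillar collagen of cartilage, had 22 sites of up to 6603 bp, which covered 34.96% of 120988 bp, the highest share in its class. Upstream of Col27a1 only 4.20% of the 50 kb was covered. Col11a1 and Col11a2, which build type XI collagen with a product of Col2a1, had promoter sites of 3097 and 2854 bp. The body of Col11a1 was otherwise nearly free of sites, with 1.59% of 190179 bp covered by 4 sites, and in Col11a2 the promoter site was the only one in the gene and covered 8.44%.

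Type IX collagen decorates the surface of cartilage fibrils, and none of its 3 genes had a promoter site. Each had 1 site in the gene, of 1005 bp in Col9a1, 498 bp in Col9a2 and 637 bp in Col9a3, and these covered 1.34%, 3.12% and 2.61%. The nearest site was 7833 bp upstream of the TSS at Col9a1, 1822 bp after it at Col9a2 and 2688 bp after it at Col9a3. Upstream coverage differed among them, at 0.864% for Col9a1, 24.9% for Col9a2 and 15.1% for Col9a3. Other protein-coding genes lie in the 50 kb before Col9a2 and Col9a3 and none in that before Col9a1. Col10a1, the collagen of hypertrophic chondrocytes and the shortest gene of the 44 at 7105 bp, had a site of 402 bp over its TSS and no other site in the gene.

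Of the epithelial genes, Col7a1 encodes the anchoring fibrils of the skin and Col17a1 a transmembrane protein of hemidesmosomes. Col7a1 had a 2330 bp site over its TSS and 2 further sites late in the gene, together 16.3% of 31290 bp. In the 50 kb upstream no other site lay, and the part of the promoter site before the TSS covered 0.874%. Col17a1 had no promoter site. Its 2 body sites of 740 and 728 bp covered 3.21% of 45751 bp, and 7 upstream sites of at most 584 bp covered 4.96%.

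Set side by side, 11 of the 13 fibrillar and type VI genes (84.6%, 57.8 to 95.7) and 6 of the 10 cartilage and epithelial genes (60%, 31.3 to 83.2) had a promoter site, where 63.9% of all genes did. The ranges of the 2 groups overlap, and with so few genes and no replicates the difference of 24.6 percentage points was not tested. It was 11.5 points when the centre of the site had to lie in the window and 54.9 points when classes were drawn by protein structure, which moves Col2a1, Col11a1, Col11a2 and Col27a1 to the fibrillar side and leaves 2 of 6 cartilage and epithelial genes with a promoter site. The TSS itself was covered at 8 of 13 and at 6 of 10 genes. Promoters with an island numbered 2 of 13 and 4 of 10.

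In the gene bodies the median share covered was 7.13% for the fibrillar and type VI genes and 3.17% for the cartilage and epithelial genes, which lie to either side of the 6.47% of all protein-coding genes. Within these groups the spread was far wider than the gap between them, from 1.499% to 92.7% in the former and from 1.34% to 34.96% in the latter. Pooled over bases, 13.5% and 11.4% were covered, beside 8.87% for all protein-coding genes, and Col27a1 alone held 42303 of the 64879 covered bases of the cartilage and epithelial genes. The fibrillar genes had a median of 18.6%, the type VI genes of 4.34%. Upstream, the medians were 12.5% and 4.81%, against 6.13% for all genes. A site of at least 5 kb overlapped the body of 4 of the 13 genes and of 1 of the 10.

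**Figure D3:**
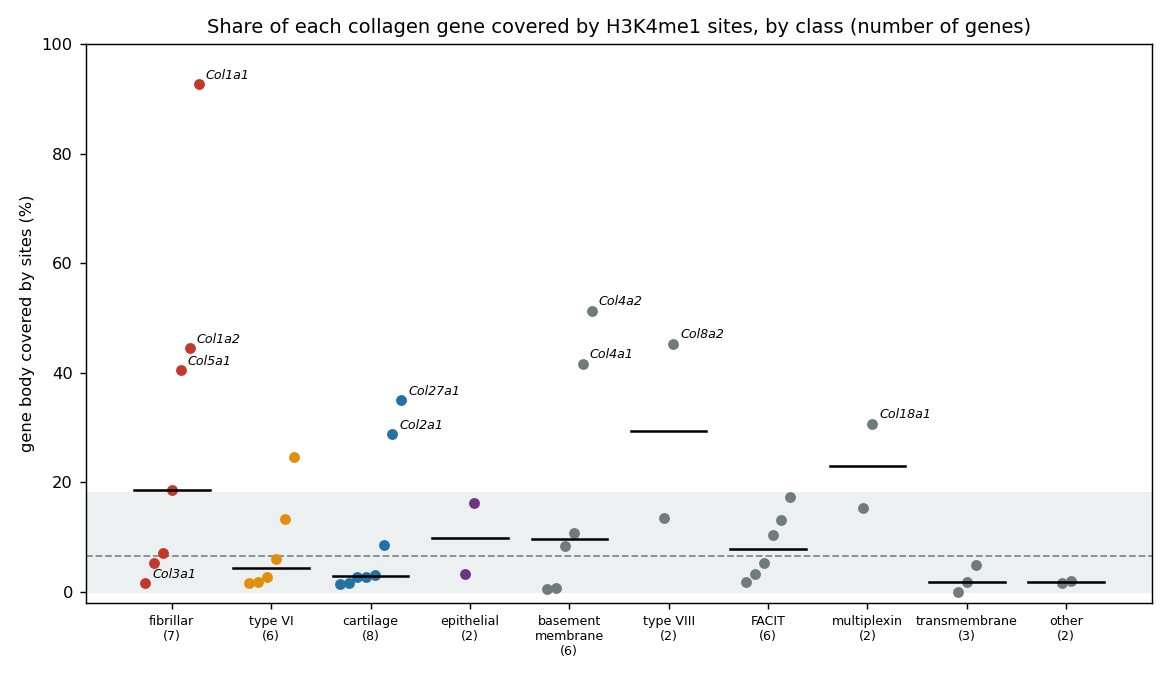
Percent of each of the 44 gene bodies covered by sites, with 1 point a gene grouped by class, a black bar for the class median, and the median (dashed) and quartiles (shaded) of all 21938 protein-coding genes. Col1a1 stands at 92.7%, Col3a1 at 1.499%, and the classes overlap.

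The position of the sites along the gene differed as well. Genes of at least 10 kb were divided into 10 equal parts, numbered from the TSS. In part 1 the mean share covered was 49.8% for the fibrillar genes, 43.5% for type VI, 35.2% for the cartilage genes and 33.4% for all protein-coding genes. From part 3 on, type VI genes stayed between 0% and 6.83%, whereas the fibrillar mean was 33.3% in part 3 and 17.04% in part 10. Col1a1 carries much of the fibrillar mean in the later parts. Without it the mean was 44.7% in part 1, 22.2% in part 3, 6.96% in part 6 (20.2% with it, and 7.48% for all protein-coding genes) and 7.05% in part 10 (6.34% for all), a comparison added after the data were seen.

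**Figure D4:**
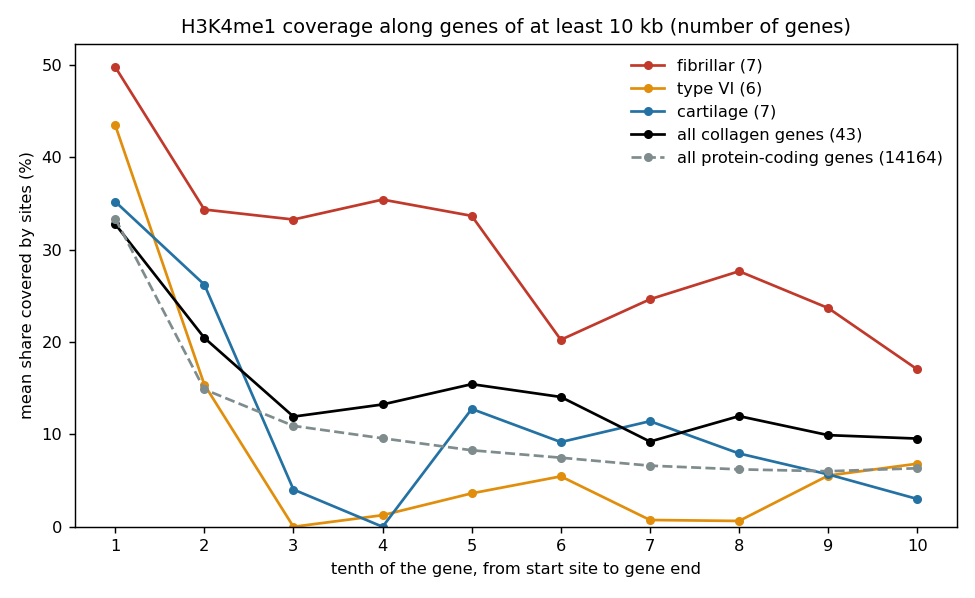
Mean percent of each of 10 equal parts of the gene covered by sites, from TSS to gene end, for genes of at least 10 kb (7 fibrillar, 6 type VI, 7 cartilage, 43 collagens and 14164 protein-coding genes). The fibrillar line, which includes Col1a1, lies above the others in all 10 parts, and every line is highest in part 1.

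Of the 479 sites counted in collagen gene bodies, 105 had their centre in the first intron (21.9%) and 304 in a later intron (63.5%), against 33.4% and 47.2% for all protein-coding genes. First introns make up 12.9% of the length of the collagen genes and 22.1% of that of all genes, so in both sets the first intron held a larger share of sites than of length. Exons held 6.89% of collagen sites and 7.24% overall.

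The type IV genes, which encode the sheet-forming collagens of basement membranes, lie in head-to-head pairs, and the pairs differed. Col4a1 and Col4a2, the chains present in nearly all basement membranes, have TSSs 21 bp apart on chromosome 8 and share an 11373 bp site over a CpG island. Sites covered 41.6% of Col4a1 and 51.3% of Col4a2. In head-to-head pairs the upstream window of each gene lies in the body of the other, and here, with 17 and 22 sites, it was covered to 66.6% and 66.8%, Col4a2 having the most upstream sites of the 44. Col4a3 and Col4a4, found in kidney glomeruli and a few other membranes, start 72 bp apart and share 1 promoter site of 1492 bp, with 10.8% and 8.36% of the genes covered. Col4a5 and Col4a6, their X-linked counterparts, start 1309 bp apart. A 923 bp site covered the Col4a5 TSS and stopped short of the Col4a6 window, and only 0.636% and 0.440% of these genes, of 213850 and 308674 bp, were covered. Of all X-linked protein-coding genes, 40.1% had a promoter site, and of autosomal ones 65.5%.

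Among the remaining genes, Col8a2, a network collagen of the cornea and vessel walls, had 45.3% of 27538 bp covered by 8 sites and 40.4% of its upstream window, and Col8a1 had 29 sites over 13.4% of the gene. The FACITs, which bind to fibril surfaces, ran from 17.3% in Col16a1, with a 6373 bp promoter site, through 13.1% in Col12a1 and 10.4% in Col14a1, to 1.77% in Col19a1. Col20a1 and Col22a1 had no promoter site. Col22a1 had none in the 50 kb upstream either, and its 14 body sites began 143101 bp after the TSS. The multiplexins, whose C termini release anti-angiogenic fragments, had promoter islands with sites, and 30.7% of Col18a1 and 15.3% of Col15a1 was covered.

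The transmembrane collagens were sparsely covered. Col13a1 was the only gene of the 44 with no site in any of the 3 windows, where 16.1% of all protein-coding genes had none, although its promoter has a CpG island, and the site nearest to its TSS lay 147526 bp downstream, beyond the end of the gene. Col23a1 had 2 promoter sites and 1.73% of 293999 bp covered. Col25a1, the longest gene at 468377 bp, tied with Col4a2 for the most body sites, 34, but these covered 4.91%. Its most upstream TSS had no promoter site, and its principal coding TSS, 49390 bp further on, had one. Col26a1 and Col28a1, in no class, lacked a promoter site and had 1.54% and 2.01% covered.

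**Figure D5:**
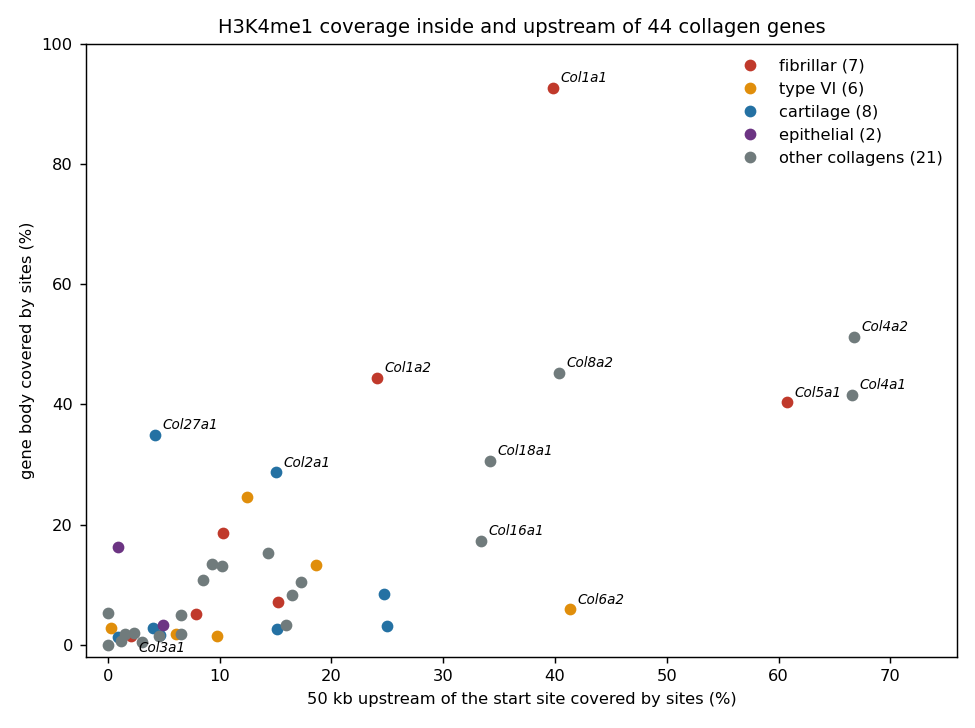
Percent of the gene body covered by sites (vertical) against percent of the 50 kb upstream covered (horizontal) for the 44 collagen genes, coloured by class. Col1a1, Col5a1, Col4a1, Col4a2, Col8a2 and Col18a1 exceed 25% on both axes, Col1a2, Col2a1 and Col27a1 only in the gene, and Col6a2 and Col16a1 only upstream.

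In all, 9 collagens had at least 25% of the gene covered (Col1a1, Col1a2, Col5a1, Col2a1, Col27a1, Col4a1, Col4a2, Col8a2 and Col18a1), a band that held 17.5% of all protein-coding genes. Another 11 had less than 2% covered, as did 32.8% of all genes. Of 28 collagens with more than 1 coding TSS, 11 had a site at every one, 9 at none and 8 at some. This split was not counted for all genes. A site lay at 1 or more coding TSSs of 32 of the 44 collagens (72.7%), beside 66.8% of 21853 protein-coding genes.

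The enzymes and partners of collagen assembly were read from the same table. Of 48 such genes, 45 had a promoter site (93.8%, 83.2 to 97.9), beside 63.9% of all protein-coding genes. An island lay at 32 of the 48 promoters. Over all protein-coding genes, 93.0% of island promoters and 30.0% of the others had a site. All 20 genes for prolyl and lysyl modification and folding had one, among them Serpinh1, the collagen chaperone, with 87.6% of its 7864 bp covered. Of 13 genes for processing and crosslinking 12 had one, all but Loxl2, a lysyl oxidase relative. All 7 receptor genes had one, and an island lay at 1 of these promoters. Of 8 fibril partners 6 had one, and Lum (lumican, a proteoglycan on collagen fibrils) and Tnxb (tenascin X) did not. Lum had no site in any window. Loxl2 and Lum were the only genes of the 48 with neither an island nor a promoter site.

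The cell label was checked against markers, beside 63.9% of all genes with a promoter site and a median of 6.47% covered. Fibroblast markers had promoter sites at 9 of 10 genes (all but Lum) with a median of 33.2% of the gene covered, and immune markers at 1 of 5 (Csf1r) with 3.17%. Chondrocyte markers had promoter sites at 5 of 8 (not Matn1, Chad or Snorc) with a median of 1.76%, epithelial markers at 6 of 8 (not Krt5 or Grhl2) with 7.35%, and endothelial markers at 4 of 6 (not Cdh5 or Tie1) with 10.97%. The fibroblast list had the highest median of the 5, and a promoter site was also present at most epithelial and endothelial markers. Within the fibroblast list the share ran from 0% at Lum, 0.519% at Dcn and 1.46% at Fap to 100% at S100a4, a gene of 2275 bp. The lists were not matched for gene length.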

How the data were processed

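H3K4me1 ChIP-seq was made from 12 libraries of the NG3 fibroblast line, with 2 input libraries. Per the study's methods the authors trimmed reads with Trim Galore, aligned them with BWA, handled them with SAMtools and Picard and called broad peaks with MACS2. The submitters' processing notes also name deepTools, DESeq2 and the mm10 build, and tool versions are not given in the sources used here. The deposited table holds a chromosome, a start and an end for each site pooled over all samples, with no other measurement (its unit is position in bp, not signal), so no replicate, time point, depth or test enters, and 0 columns belong to a single library. The samples were grouped by their labels.

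Sites were laid on GENCODE M21 protein-coding genes (the study's methods name a later release, not used here) with Python 3.11.15 and numpy 2.4.6. Of 160144 sites, 160108 lie on assembled chromosomes and none passes a chromosome end of GRCm38.p6. Starts were shifted to 1-based positions. Promoters were 1 kb either side of the most upstream TSS, and an overlap of 1 bp counted. CpG islands (16099) were searched outside repeats, each CG scoring 17, and kept above 200 bp with at least 50% G and C and more than 0.6 of the CG count predicted from base content (numba 0.67.0). Motifs were searched on both strands. The overlap and island code was tested on simulated data. The collagens, their classes, the partner genes and the markers were chosen with earlier results of these data known, so no p-value is given. Every collagen was named, with full values for the fibrillar, type VI, cartilage and epithelial genes and for extremes, and of the other lists the genes without a promoter site, or those with one where these were fewer. Serpinh1 was added after its values were seen. Alternatives changed the TSS, windows, overlap, sites and classes.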

Additional observations from a re-analysis of the deposited data

How the results depend on the processing

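An alternative stayed when its count or median was within 1.5 times the reported one. For the difference between promoter shares (24.6 points), it stayed when within the reported 95% interval, -10.9 to 55.4 points. This interval is wide and holds both signs, so even 54.9 points stayed, which says little about stability. The 43 gene bodies and 42 upstream regions with a site, of 44 genes, could not rise past 1.5 times. Only a fall could count as a move there. Across 40 alternatives for 7 results, 39 stayed, and no difference between the classes changed sign. The exception was the number of collagen promoters with a CpG island, 17 as reported and 32 under the Gardiner-Garden criteria on unmasked sequence. There the share of collagens passed that of all genes (72.7% against 67.4%), and with only sites of at least 500 bp the median body coverage of collagens was below that of all genes (5.11% against 5.197%). Collagen promoters with a site numbered 25 to 34. Requiring the centre of the site in the window lost Col2a1, Col4a1, Col4a2, Col5a1, Col5a3 and Col6a3, whose wide sites are centred outside it. A 2 kb window added Col3a1, Col9a2 and Col4a6, and RefSeq starts, known for 35 collagens, added Col25a1. The difference in promoter share between fibrillar and type VI and cartilage and epithelial genes ranged from 11.5 to 54.9 percentage points, and that in median body coverage from 3.04 to 5.57 points around the reported 3.96. Leaving out Col1a1, an alternative chosen after seeing the data, gave 3.37 points. No paired analysis was possible because the result comes from no test and the pooled sites carry no replicate. The table gives neither the reads nor the score behind a site, so the absence of a site means only that none was listed.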
